A study of Mus musculus with 43 samples.

Results

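The genes described here are 6 inhibitors of cyclin-dependent kinases (CDKs) and 4 genes of the p53 pathway, Cdkn1a, Cdkn1b, Cdkn1c, Cdkn2a, Cdkn2b, Cdkn2c, Trp53, Mdm2, Pmaip1 and Bbc3. They were picked by gene symbol, and all 10 were found among the 24537 genes of each of the 3 deposited expression tables. The RNA came from mouse astrocytes, the glial cells that support neurons and their synapses. In the disorder table the cells were taken from postnatal day 7 cortex, purified by immunopanning (capture on dishes coated with antibody) and grown for 12 days without serum. They came from 6 wild-type (WT) samples, 6 of a Fragile X syndrome model (FXS), 6 of a model of Rett syndrome (RTT) and 4 of a Down syndrome model (DS), and the labels name no strain or allele. The BMP6 table held WT cells prepared in the same way, with the growth factor BMP6 present for the last 5 of the 12 days (BMP6, n = 6) or absent (Alone, n = 6), and each culture gave a library of either kind. These cultures are named here by their batch label, 2 to 7. The preparation table held astrocytes lysed right after immunopanning (IP acute, n = 3), grown after immunopanning (IP cultured, n = 3) or grown by the method the labels call MD (MD cultured, n = 3), with no age or time in culture given. Levels are in FPKM, read fragments scaled to transcript length and to library depth, and were compared within a table only.

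CDKs drive the cell cycle, and their inhibitors hold it. The INK4 proteins from Cdkn2a (p16), Cdkn2b (p15) and Cdkn2c (p18) bind CDK4 and CDK6 and keep cyclin D away, whereas the Cip/Kip proteins from Cdkn1a (p21), Cdkn1b (p27) and Cdkn1c (p57) bind complexes of cyclin and CDK. Cdkn2a also encodes p19Arf from another first exon, which binds the ubiquitin ligase Mdm2 and so spares p53. The p53 protein, from Trp53, is kept low by Mdm2 and switches on Cdkn1a, Mdm2 itself and the pro-apoptotic BH3-only genes Pmaip1 (Noxa) and Bbc3 (Puma). Cdkn2a and Cdkn2b are also known as genes that rise when rodent cells are grown in culture.

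Start regions are shown for Cdkn1a, the p53 target with the highest level of the group. They are also shown for the Cdkn2a and Cdkn2b locus, whose genes were higher in both kinds of culture than in fresh cells. Each is the 250 bases before a RefSeq transcription start (build GRCm38.p6), 5′ to 3′ on the strand of the gene. The RefSeq table matched 8 of the 10 genes. Capitals mark AACATGTC or its reverse complement GACATGTT, letters found in p53 half-sites, and also GGGCGG or CCGCCC, the GC box, and TGACGTCA, the cyclic AMP response element, with both strands searched. Cdkn1a has a first start, near the beginning of its annotated gene, and a second one downstream, Cdkn2a has one start for the p19Arf first exon and a later one for p16, and Cdkn2b lies beside them on the same strand.
Cdkn1a first start, chr17:29090729-29090978, plus strand: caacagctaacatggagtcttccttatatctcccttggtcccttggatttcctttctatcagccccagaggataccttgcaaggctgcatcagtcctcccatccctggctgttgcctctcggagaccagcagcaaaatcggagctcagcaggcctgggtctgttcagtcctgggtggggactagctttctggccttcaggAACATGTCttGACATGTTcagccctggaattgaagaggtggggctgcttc
Cdkn1a second start, chr17:29093519-29093768, plus strand: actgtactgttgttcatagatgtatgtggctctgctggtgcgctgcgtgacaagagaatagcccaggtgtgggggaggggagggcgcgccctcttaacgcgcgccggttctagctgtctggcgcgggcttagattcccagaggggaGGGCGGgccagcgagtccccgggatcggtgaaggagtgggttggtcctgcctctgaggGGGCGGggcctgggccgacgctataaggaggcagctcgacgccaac
Cdkn2a p19Arf start, chr4:89294620-89294869, minus strand: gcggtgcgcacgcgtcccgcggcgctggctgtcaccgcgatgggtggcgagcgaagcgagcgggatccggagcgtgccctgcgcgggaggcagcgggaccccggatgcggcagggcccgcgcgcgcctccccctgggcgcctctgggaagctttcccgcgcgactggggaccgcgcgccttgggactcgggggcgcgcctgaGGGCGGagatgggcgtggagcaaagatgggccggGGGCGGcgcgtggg
Cdkn2a p16 start, chr4:89282193-89282442, minus strand: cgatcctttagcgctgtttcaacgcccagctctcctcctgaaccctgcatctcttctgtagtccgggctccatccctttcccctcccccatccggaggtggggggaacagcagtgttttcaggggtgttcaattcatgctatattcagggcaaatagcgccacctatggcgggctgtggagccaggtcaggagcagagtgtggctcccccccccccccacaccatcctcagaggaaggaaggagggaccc
Cdkn2b start, chr4:89311033-89311282, minus strand: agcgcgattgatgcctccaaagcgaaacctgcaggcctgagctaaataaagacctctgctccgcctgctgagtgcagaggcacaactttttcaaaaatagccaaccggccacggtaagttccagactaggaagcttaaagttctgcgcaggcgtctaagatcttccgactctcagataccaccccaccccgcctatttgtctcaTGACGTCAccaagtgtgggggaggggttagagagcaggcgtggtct
The first window of Cdkn1a held those half-site letters at positions -50 and -40 from the start. Those letters occurred in 0.554% of all 32851 RefSeq windows, each of which also takes in 50 bases after the start. The whole p53 consensus, a pair of half-sites up to 13 bases apart, was found in 24 windows (0.0731%), and among the windows of these genes only in the first one of Cdkn1a, at position -73, where it overlaps the first of the marked letters. The GC box letters were in 35.7% of windows and TGACGTCA, seen in Cdkn2b at position -46, in 1.79%. A match is a match of letters only, and no binding was measured.

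The estimated depth per library, read from the spacing of low FPKM values, was 10.6 to 55.2 Mreads (megareads), with a median of 26.8 Mreads. Fmr1, the gene lost in Fragile X syndrome, lay between 0.967 and 2.21 FPKM in FXS and between 12.0 and 17.1 in WT. Astrocyte genes such as Slc1a3 (at least 407.5 FPKM) and Aldh1l1 (at least 54.7 FPKM) were present in every group, while the endothelial gene Cldn5 was at 399.1 FPKM or more in the 3 IP acute libraries and at most 0.035 FPKM in every other library. RNA was from whole samples, in which fewer cells of a type and less RNA per cell cannot be told apart. The labels do not say that the preparation libraries came from separate animals, so their p-values measure the spread between these samples only.

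By mean level over the 22 libraries of the disorder table, Cdkn1a led the group at 98.6 FPKM, above 97.7% of all genes in the table. Cdkn1b followed at 54.4 FPKM, Cdkn2c at 38.5, Cdkn2b at 28.8, Trp53 at 23.5, Mdm2 at 21.7, Cdkn2a at 6.90, Bbc3 at 6.27, Cdkn1c at 3.69 and Pmaip1 at 3.37. The order of neighbours such as Trp53 and Mdm2, or Cdkn2a and Bbc3, was within the spread between libraries. In the BMP6 table Cdkn1a was again highest (142.9 FPKM) and Cdkn1c lowest (1.51 FPKM), and in the preparation table Cdkn1a was highest in every preparation. There Cdkn2a was lowest in IP acute (mean 0.602 FPKM) and MD cultured (3.40 FPKM), while in IP cultured Pmaip1 was lowest (3.50 FPKM).

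The disorder table asked how astrocytes of each model differ from WT. In DS the noxa gene Pmaip1 was the member that moved most, and Trp53 was lower by a smaller step. In FXS and RTT no member passed the test. Differences are on the log2(FPKM + 0.5) scale, from limma with Benjamini-Hochberg adjustment over all genes tested, and a gene is called past an adjusted p of 0.05. Of the 10 genes, all of which passed the filter on low values in each table, 2 fell and 0 rose in DS, where 2.25% of the 12780 genes tested fell and 2.10% rose. Those shares rest on 287 and 269 genes, which became 116 and 140 without DS 19 and 546 and 348 without DS 32. By limma 0 members were called in FXS or in RTT, where the share of all genes called was 0.00782% each, and 4 and 2 members had an unadjusted p under 0.05 (19.5% and 10.5% of all genes). The comparisons with WT share the same 6 WT libraries.

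Pmaip1 encodes noxa, a small BH3-only protein that neutralises MCL1. Its levels in the 4 DS libraries were 1.23, 0.902, 0.572 and 0.466 FPKM. In WT they ran from 2.97 over a median of 4.49 to 7.77 FPKM, in FXS from 1.70 over 3.11 to 3.79, and in RTT from 1.41 over 4.45 to 5.85. All 4 DS libraries lay below every library of the other groups, where 3.74% of all genes were lower without overlap in DS against WT, 2.39% against FXS and 1.83% against RTT. The DS mean was 0.792 FPKM ± 0.344 (SD, n = 4), and the WT mean was 4.83 FPKM ± 1.75 (SD, n = 6), a ratio of 6.09 between WT and DS. On the log2 scale Pmaip1 fell by 2.02 in DS against WT (SE 0.29, limma adjusted p = 0.000175), the 58th smallest p of 12780 genes. Against FXS it fell by 1.39 (SE 0.29, adjusted p = 0.00909) and against RTT by 1.77 (SE 0.29, adjusted p = 0.000889), where 1.18% and 1.21% of all genes fell, and it was the only member called in each. In 3 of the 4 DS libraries Pmaip1 was under 1 FPKM, so that it passed the filter through the other groups, and with no filter the adjusted p was 0.000393 against WT, 0.0152 against FXS and 0.00173 against RTT. The estimated reads behind the DS values were 33 to 125 per library. Pmaip1 lies on chromosome 18 (66458533 to 66465565, plus strand, 3 exons, mm10). It stayed called in the 3 DS comparisons with single libraries left out in turn and under both other scalings.

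Trp53, the gene of p53 itself, ran from 24.5 over a median of 25.9 to 27.9 FPKM in the 6 WT libraries. The DS libraries had 17.1, 21.95, 18.7 and 19.7 FPKM, all below the WT range. In FXS the range was 17.2 to 25.3 FPKM (median 22.3) and in RTT 20.6 to 30.8 (median 25.1), and both overlapped WT. Trp53 fell by 0.43 in DS against WT (SE 0.11, adjusted p = 0.0314), or by 0.36 relative to the median of all genes, from 26.1 ± 1.18 to 19.4 ± 2.02 FPKM. That call was near the threshold and was lost with quantile normalization (log2 -0.37, adjusted p = 0.0641) and without DS 19 (log2 -0.37, adjusted p = 0.146). Leaving out WT 30, 34 or 35 or DS 39, each alone, also ended it (adjusted p = 0.0529 to 0.0619). It was also lost without WT 33, FXS 31 and DS 32 together, the libraries of highest summed FPKM in their groups (log2 -0.42, adjusted p = 0.0589), an alternative chosen after seeing the data. Against RTT the Trp53 difference was -0.36 (SE 0.11, adjusted p = 0.0868) and against FXS -0.17 (SE 0.11, adjusted p = 0.493). Of the 50-base words of the Trp53 transcript, 8.94% are shared with the pseudogene Trp53-ps, so a part of its reads could not be placed with certainty.

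The other p53 members were not called in DS. Bbc3, which encodes puma, was at 5.59, 5.13, 4.98 and 5.29 FPKM in DS against 6.25 to 8.06 (median 6.66) in WT, with no overlap between the groups, and its log2 difference was -0.38 (SE 0.15, adjusted p = 0.152). Cdkn1a was at 98.4, 71.7, 82.5 and 56.1 FPKM in DS and ran from 82.0 over a median of 127.6 to 163.4 FPKM in WT, so that the groups overlapped. Its difference of -0.68 (SE 0.20, adjusted p = 0.0533) just missed the threshold, and it passed with quantile normalization (adjusted p = 0.0485) and without WT 26 (log2 -0.80, adjusted p = 0.0246). The Cdkn1a differences of FXS (-0.41, SE 0.18, adjusted p = 0.206) and RTT (-0.43, SE 0.18, adjusted p = 0.47) from WT had the same sign. Mdm2, the ligase that marks p53 for breakdown, was at 20.1, 17.5, 18.2 and 20.6 FPKM in DS, 2 of them below the WT range of 18.6 to 25.1 (log2 -0.20, SE 0.09, adjusted p = 0.232). All 4 lay below the FXS range of 21.3 to 25.2 FPKM (log2 -0.26, SE 0.09, adjusted p = 0.135). Pmaip1, Bbc3, Trp53 and Cdkn1a were also below WT on average in FXS, short of the threshold (Pmaip1 log2 -0.63, SE 0.26, adjusted p = 0.19). Mdm2 was slightly above WT there (log2 0.07, SE 0.08, adjusted p = 0.704).

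**Figure D1:**
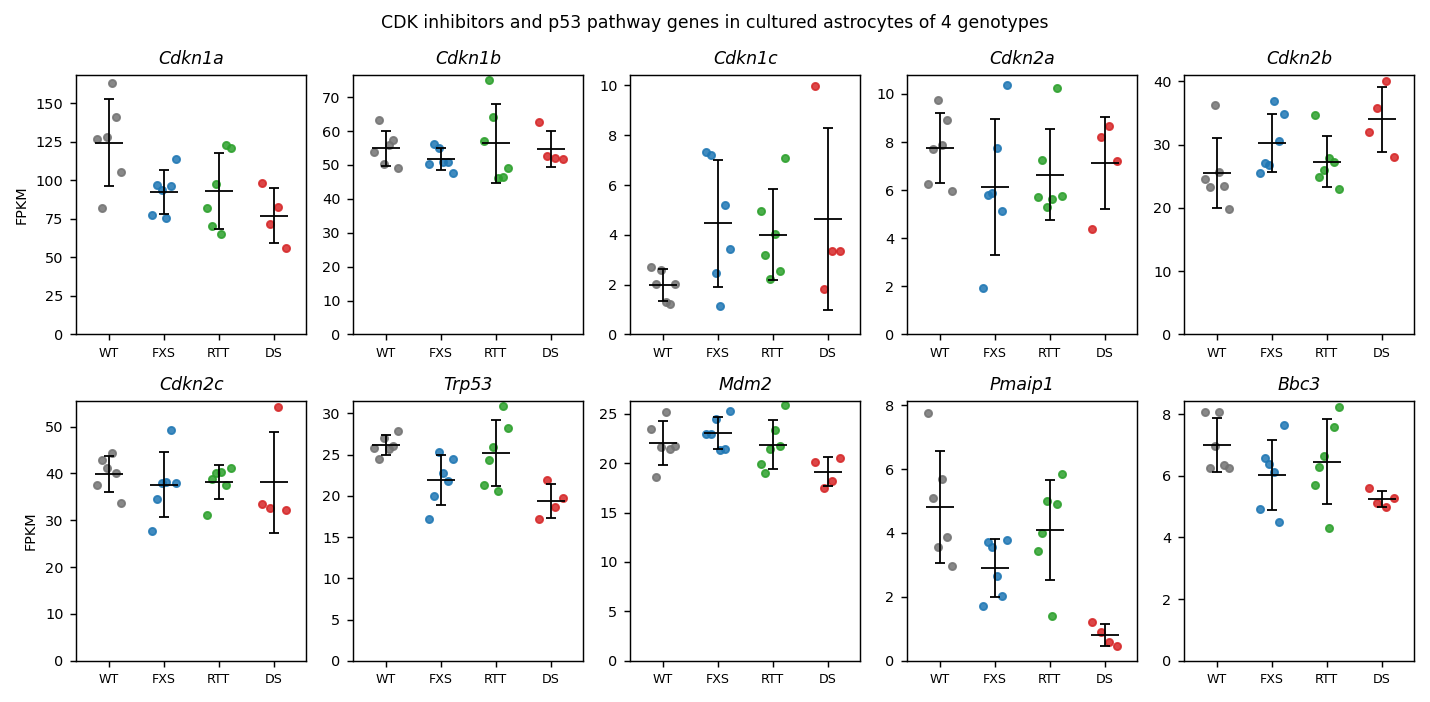
FPKM (linear axes from 0) of the 10 genes in the 22 libraries of the disorder table, a point per library, with the group mean and SD. The 4 DS points of Pmaip1 (0.466 to 1.23 FPKM) sit under every other library, and those of Trp53 sit under every WT library.

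Among the INK4 genes the disorder groups lay close together. Cdkn2c ran from 33.8 to 44.4 FPKM in WT, 27.7 to 49.2 in FXS, 31.1 to 41.1 in RTT and 32.1 to 54.2 in DS. Cdkn2a, whose deposited row is a transcript that shares 575 of its 895 bases (64.2%) with the other product of the locus, ran from 5.98 to 9.76 FPKM in WT, and the 22 libraries together spanned 1.91 to 10.4. The gene-level value cannot separate p16 from p19Arf. Cdkn2b was at 32.02, 35.7, 40.05 and 28.1 FPKM in DS and at 19.9 to 36.2 (median 23.99) in WT. Its difference of 0.42 (SE 0.14, adjusted p = 0.102) was not called, but it passed without WT 30 (log2 0.52, adjusted p = 0.0242), the WT library with the highest Cdkn2b.

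Of the remaining Cip/Kip genes, Cdkn1b was the steadiest, with group means between 51.7 and 56.3 FPKM and log2 differences from WT between -0.08 and 0.02. Cdkn1c, an imprinted inhibitor expressed from the maternal copy, was low and variable. It ran from 1.21 over a median of 2.03 to 2.73 FPKM in WT, from 1.138 over 4.32 to 7.31 in FXS and from 2.22 over 3.61 to 7.10 in RTT, and it was at 9.99, 1.83, 3.34 and 3.35 FPKM in DS. Its log2 differences from WT were 0.84 in FXS (SE 0.37, adjusted p = 0.21), 0.81 in RTT (SE 0.37, adjusted p = 0.472) and 0.85 in DS (SE 0.41, adjusted p = 0.255). None was called, and every group overlapped WT.

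Other genes of the cell cycle and the p53 pathway were read from lists made for these comparisons. In DS, 13 of 29 proliferation genes tested fell against WT and 0 rose, at a median log2 difference of -0.82 where the median of all genes was -0.07. Among them were Rrm1, a subunit of ribonucleotide reductase (-0.66, SE 0.13, adjusted p = 0.00484), the spindle checkpoint kinase gene Bub1b (-1.08, SE 0.26, adjusted p = 0.0181) and the replicative helicase genes Mcm2 (-0.75, SE 0.18, adjusted p = 0.0206) and Mcm7 (-0.61, SE 0.15, adjusted p = 0.0218). The number called depended on the libraries: it was 1 without DS 19, 4 each without DS 21 or WT 26, 5 without WT 22, and 9 to 13 without any other single library. With the other scalings it was 10 and 8, and with WT and DS alone in the fit it was 6. Of the 23 CDK partners tested 4 fell, the cyclin genes Ccne1 (-0.83, SE 0.21, adjusted p = 0.0233), Ccna2 (-1.15, SE 0.31) and Ccne2 (-0.86, SE 0.23) and the CDK phosphatase gene Cdkn3 (-1.05, SE 0.27). That count was 0 without WT 26 or DS 19, 1 without WT 22 or DS 21, 2 without DS 39 and 3 to 4 without any other library. Of 31 other p53 targets 1 fell, Ckap2, a spindle protein (-1.002, SE 0.25, adjusted p = 0.0253), of 10 BCL2 family genes 1 fell, Bcl2l11, which encodes bim (-0.50, SE 0.14, adjusted p = 0.0394), and of 19 p53 regulators 0 were called by limma, with 3 at an unadjusted p under 0.05 and 2 called lower without DS 32. With quantile normalization 0 of the BCL2 genes were called. The call of Ckap2 was lost without WT 26, DS 19 or DS 32, and no BCL2 gene was called lower without any one of WT 26, 30, 33, 34 and 35 and DS 19, 21 and 32.

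Against FXS, 4 of 29 proliferation genes fell in DS, with Bub1b at -1.07 (SE 0.26, adjusted p = 0.023), Ccnb2 at -1.22 (SE 0.30), Rrm1 at -0.53 (SE 0.13) and Ccnb1 at -0.93 (SE 0.25). The count was 0 without FXS 38, DS 19 or DS 21, 1 without FXS 31 or DS 32, 2 without FXS 28 or FXS 29, and 10 without DS 39. Cdkn3 fell by 1.18 (SE 0.27, adjusted p = 0.0183), and no CDK partner was called without DS 19 or DS 21. The death receptor gene Fas rose by 0.65 (SE 0.13, adjusted p = 0.00695) and Ddit4, an inhibitor of mTORC1, fell by 0.55 (SE 0.15, adjusted p = 0.0494), while by limma 0 p53 regulators and 0 BCL2 genes were called (1 and 0 at an unadjusted p under 0.05). No p53 target was called lower without FXS 17, 24, 29, 31 or 38 or DS 21, 32 or 39, each left out alone. Against RTT the only gene of these 5 lists called was Bub1b (-0.96, SE 0.26, adjusted p = 0.0465). No proliferation gene was called there without RTT 18, 40, 43 or 44 or DS 19, 21 or 32, and 4 were without DS 39. Of the CDK partners 1 was lower without RTT 20 or DS 39, and of the p53 targets 1 was lower without RTT 40 and 1 higher without DS 39. No list gene was called by limma in FXS or RTT against WT or in RTT against FXS, though 11 of 31 p53 targets in FXS and 3 in RTT had an unadjusted p under 0.05 against WT. Without FXS 38, 1 p53 target was lower in FXS than in WT, and without RTT 40, 2 p53 regulators were lower and 2 p53 targets higher in RTT than in FXS. RTT against FXS had 0 members called either (0.0235% of all genes were), and 0 at an unadjusted p under 0.05.

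Markers of other cells differed between DS and WT mostly short of the test. Summed microglial markers ran from 0.723 to 9.37 FPKM in DS and from 2.66 to 36.4 in WT, and 7 of 7 tested were lower on average, with 0 called by limma and 6 at an unadjusted p under 0.05. Of the 10 markers listed, 2 stayed under 1 FPKM in every WT library and 5 in every DS library. The filter thus favoured markers high in WT, and their shared direction is no separate evidence. Mural and fibroblast markers summed to 581.7 to 1019 FPKM in DS and 397.4 to 1793 in WT, and 10 of 10 were lower on average, with 0 called and 4 at an unadjusted p under 0.05, and Cldn5 was at most 0.026 FPKM in either. Of the oligodendrocyte lineage markers 1 of 10 rose, and of the neuronal markers 2 of 6. Summed proliferation genes were 151.0 to 227.8 FPKM in DS and 240.0 to 456.0 in WT, and the groups did not overlap. The part of these cells and of cell division in the lower Trp53 and Pmaip1 was not tested.

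Over the 22 libraries, after the mean of each group was taken out, the levels of some genes followed those of the members closely. Pmaip1 was followed best by Eda2r, a receptor of the TNF receptor family (Pearson r = 0.935), Hpcal1 (0.913) and Dio2 (0.902), and Cdkn1a by Adm (0.917), Gdf15 (0.90) and Tnfrsf12a (0.884). For Bbc3 the nearest were Ing1 (0.849), Nagpa (0.821) and Aen (0.82), for Trp53 Zdhhc14 (0.898), Uba1 (0.875) and Rundc3a (0.873), and for Mdm2 Nmnat1 (0.862), P3h1 (0.861) and Hspa5 (0.857). Cdkn1b was nearest to Brox (0.905), Abi1 (0.885) and Pcmtd2 (0.879), Cdkn1c to Nppc (0.883), Rasgrf2 (0.856) and Nceh1 (0.854), Cdkn2a to Il17d (0.835), Bmyc (0.833) and Dtnbp1 (0.821), and Cdkn2c to Tmem251 (0.915), Cisd2 (0.902) and Mettl25 (0.899). The closest to Cdkn2b were Galt (0.752), Mir7034 (0.713) and Sdhaf2 (0.704), a looser likeness than for the rest. These are descriptions picked from 12780 genes in libraries that share their table and batch. Among the members, Pmaip1 and Bbc3 had the highest correlation with each other (0.857).

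The BMP6 table asked what 5 days of the factor do to WT astrocytes. Trp53 was the only member called, and it was lower with BMP6 in each of the 6 cultures. Cdkn1a, Pmaip1 and Cdkn1c differed more between cultures than between treatments. The BMP target genes Id1 and Id3 were higher with BMP6 in all 6 cultures (Id3 65.3 to 192.5 FPKM without and 485.0 to 679.5 with it). Of the 10 genes 1 fell and 0 rose, where 9.72% of the 12185 genes tested fell and 5.38% rose. With the culture as a block, as the labels pair the libraries, 3 members were called: Trp53 and Mdm2 lower and Cdkn2c higher. In that fit 2936 of the 12185 genes tested were lower and 1385 higher.

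Trp53 was at 31.9 FPKM without and 21.99 with BMP6 in culture 2, 34.9 and 27.003 in culture 3, and 36.5 and 27.2 in culture 4. In cultures 5, 6 and 7 it was at 33.5 and 25.4, 41.0 and 26.2, and 27.4 and 23.9 FPKM. Every BMP6 library lay below every untreated one (4.94% of all genes were lower without overlap), with the lowest untreated library at 27.4 and the highest BMP6 library at 27.2 FPKM. Trp53 fell by 0.42 (SE 0.09, limma adjusted p = 0.0119), from 34.2 ± 4.55 to 25.3 ± 2.01 FPKM (SD, n = 6 each), or by 0.35 relative to the median of all genes, and the adjusted p was 0.00435 with the block. Without cultures 4 and 6, an alternative chosen after seeing the data, the Trp53 difference was -0.37 and was not called without the block (adjusted p = 0.0729) but was with it (adjusted p = 0.0129).

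Mdm2 was also lower with BMP6 in 6 of 6 cultures, by 0.05 to 0.46 on the log2 scale of single pairs. It ran from 22.1 over a median of 27.5 to 38.3 FPKM in Alone and from 19.6 over 24.2 to 27.6 with BMP6, so the groups overlapped. Its log2 difference of -0.21 was called with the block (SE 0.06, adjusted p = 0.0335) and not without it (SE 0.13, adjusted p = 0.298). Cdkn2c was higher in 6 of 6 cultures, from 30.5 to 38.999 FPKM (median 34.4) in Alone to 34.5 to 43.2 (median 39.2) with BMP6. Its log2 difference of 0.17 was called with the block (SE 0.06, adjusted p = 0.049) and not without it (SE 0.08, adjusted p = 0.145). Without cultures 4 and 6 neither was called with the block (Mdm2 log2 -0.12, adjusted p = 0.133, and Cdkn2c log2 0.20, adjusted p = 0.0659).

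Cdkn2b, a gene that TGF-beta is known to induce in epithelial cells, was higher with BMP6 in 5 of 6 cultures. It went from 38.6 to 53.001 FPKM in culture 2, from 19.9 to 38.6 in culture 3 and from 21.1 to 33.8 in culture 5. In culture 7 it went from 32.2 to 42.96, in culture 6 from 41.3 to 43.1 and in culture 4 from 38.1 to 34.3 FPKM. The log2 difference of 0.40 was not called (SE 0.19, adjusted p = 0.181), nor was it with the block over all 6 cultures. Without cultures 4 and 6 the Cdkn2b difference was 0.62 (SE 0.10), and it was called with the block (adjusted p = 0.00859). That alternative was chosen after seeing the data. It leaves out the cultures with the lowest Cdkn2b differences (log2 -0.15 and 0.06, against 0.41 to 0.94 in the others). The call is thus no separate evidence.

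Cdkn1a split the untreated cultures. It was at 259.0 FPKM in Alone 4 and 238.1 in Alone 6, against 96.2 to 120.4 FPKM in the other 4 untreated libraries, and with BMP6 the 6 cultures were at 101.4 to 157.9 FPKM. It was lower with BMP6 in those 2 cultures (log2 -0.93 and -0.59) and higher in the other 4 (0.07 to 0.62), with a mean difference of -0.09 (SE 0.26, adjusted p = 0.84). The same untreated libraries also had the highest Pmaip1 of the table (11.7 and 8.21 FPKM against 3.34 to 5.64 in the other untreated ones) and the lowest Cdkn1c (0.393 and 0.317 FPKM against 1.67 to 3.29). Their summed astrocyte markers were 1001 and 1248 FPKM against 1770 to 2691 in the other untreated libraries, and their summed CDK partners were 1798 and 2063 FPKM against 605.1 to 1028. A large part of those last sums was 1 gene, Ccnd1, at 904.0 and 994.8 FPKM against 104.1 to 311.3 in the other untreated libraries. The part of cell makeup in these values was not tested. Cdkn1c was lower with BMP6 in the other 4 cultures and higher in cultures 4 and 6 (log2 0.05 and 0.94). Over all 6 its difference was -0.38 (SE 0.45, adjusted p = 0.60), and it was not called with the block either. Without cultures 4 and 6 the Cdkn1c difference was -0.82 and was called with the block (SE 0.21, adjusted p = 0.0268). That alternative was chosen after seeing the data. It leaves out the cultures in which Cdkn1c was higher, so the call is no separate evidence.

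The remaining members moved little. Cdkn1b differed by 0.11 (SE 0.13, adjusted p = 0.631), Cdkn2a by -0.17 (SE 0.22, adjusted p = 0.648), Pmaip1 by -0.18 (SE 0.26, adjusted p = 0.692) and Bbc3 by less than 0.01 (SE 0.15, adjusted p = 0.992). Cdkn2a ran from 6.69 to 14.5 FPKM in Alone and from 6.09 to 14.5 with BMP6, and Bbc3 from 8.53 to 13.3 and from 8.47 to 15.6.

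**Figure D2:**
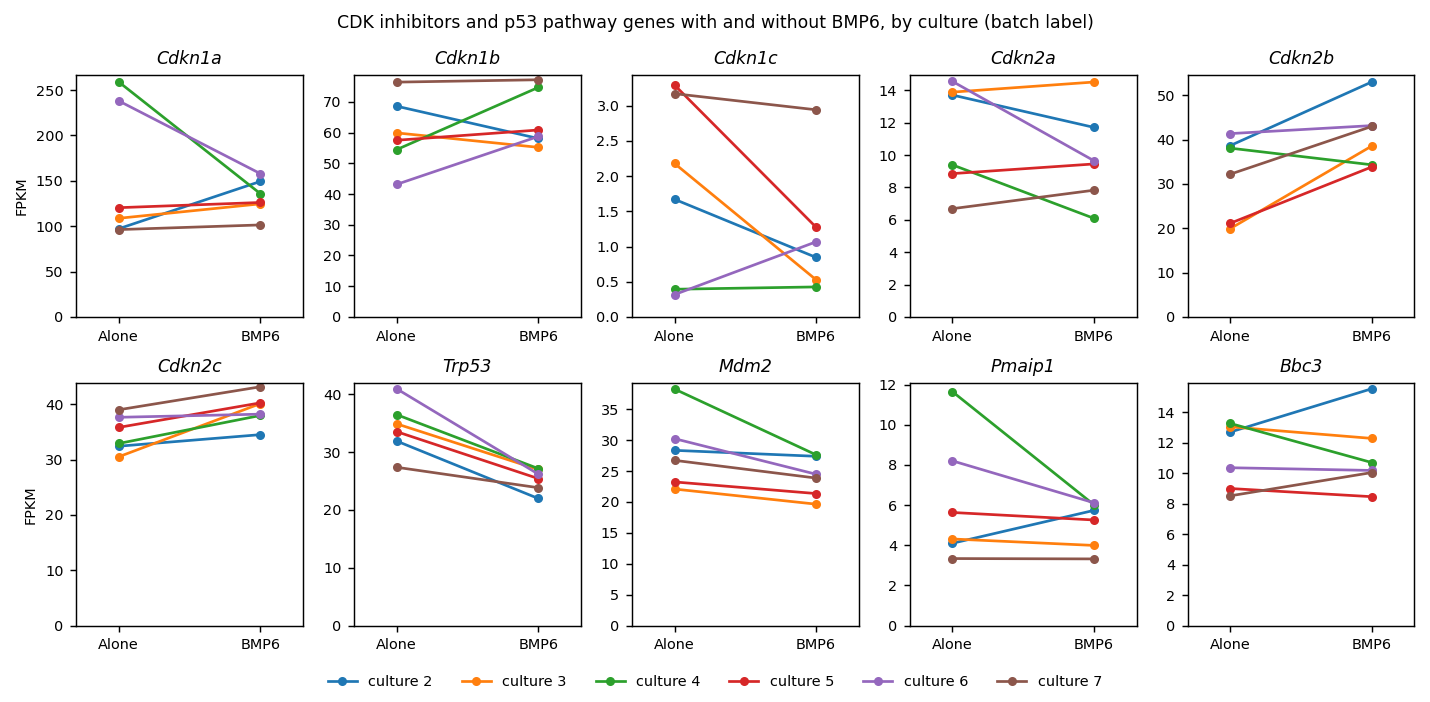
FPKM (linear axes from 0) of the 10 genes without and with BMP6, a line per culture. All 6 lines of Trp53 and Mdm2 fall and all 6 of Cdkn2c rise, while Cdkn1a falls from 259.0 and 238.1 FPKM in cultures 4 and 6 and rises in the others.

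Proliferation genes were lower with BMP6 as well. Of 29 tested 24 fell and 0 rose, at a median of -1.11 (all genes -0.08), led by the helicase subunit genes Mcm7 (-1.08, SE 0.15, adjusted p = 0.00145), Mcm6 (-0.94, SE 0.18), Mcm5 (-1.54, SE 0.31) and Mcm2 (-1.11, SE 0.23). The number was 14 with quantile normalization, 1 without cultures 4 and 6 (median -0.79) and 29 with the block, or 28 with the block and without those cultures. Without single libraries it was 10 (BMP6 3 or Alone 5), 12 (BMP6 2 or BMP6 6), 13 (Alone 4) and 16 to 27 for the rest. Of 23 CDK partners 10 fell, among them the INK4 target Cdk4 (-0.66, SE 0.10, adjusted p = 0.00221), Skp2, which marks p27 for breakdown (-0.76, SE 0.12, adjusted p = 0.00255), Myc (-0.79, SE 0.15, adjusted p = 0.00601) and Bmi1, a repressor of Cdkn2a (-0.36, SE 0.07, adjusted p = 0.00707). With quantile normalization 5 of these were called, without cultures 4 and 6 it was 4, and 5 were called without Alone 4, Alone 5, BMP6 2, BMP6 3 or BMP6 6, each left out alone.

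Of 17 p53 regulators 2 fell, the checkpoint kinase gene Chek1 (-1.08, SE 0.25, adjusted p = 0.0165) and Mdm4, a partner of Mdm2 (-0.58, SE 0.17, adjusted p = 0.0362), and 0 rose. With the block 7 fell, 1 fell without any one of 6 libraries (Alone 4 or 5, BMP6 2, 3, 5 or 6), and without cultures 4 and 6 it was 0 with 4 under the block. Of 31 other p53 targets 3 fell, Btg2 (-0.61, SE 0.10, adjusted p = 0.00344), Gadd45a (-0.95, SE 0.22, adjusted p = 0.0148) and Ckap2 (-0.83, SE 0.25), and 1 rose, the epoxide hydrolase gene Ephx1 (0.63, SE 0.12, adjusted p = 0.00634). The medians of the regulators and the targets were -0.14 and -0.07, beside -0.08 for all genes. Of all genes 9.72% fell and 5.38% rose in the fit without the block. The regulator and target counts of that fit lay near these shares. With the block, where 7 of 17 regulators fell, 2936 of the 12185 genes tested fell. The BCL2 family had 1 call of 10, the lower Bok (-1.10, SE 0.23, adjusted p = 0.0104). Summed astrocyte markers were 1001 to 2691 FPKM in Alone and 1690 to 3553 with BMP6 (1 of 10 rose), and those of the oligodendrocyte lineage 434.4 to 1380 and 365.2 to 1034 (0 of 5 tested called). Their part in the lower Trp53 was not tested.

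The preparation table compared astrocytes fresh from the brain with astrocytes grown in dishes by either method. The INK4 genes Cdkn2a, Cdkn2b and Cdkn2c and the p21 gene Cdkn1a were higher in both kinds of culture than in fresh cells, and Cdkn1c was lower. Immunopanned cultures had the highest Cdkn2a and Trp53, and MD cultures the highest Pmaip1, Mdm2, Bbc3 and Cdkn1a. Of the 10 genes 5 rose and 1 fell from IP acute to IP cultured, counting Cdkn2a, which passed the filter only through its cultured libraries, where 17.8% of the 14101 genes tested rose and 25.5% fell. From IP acute to MD cultured 7 rose, again counting Cdkn2a, and 1 fell (20.4% and 39.8% of all genes), and from IP cultured to MD cultured 4 rose and 2 fell (16.4% and 29.3%). With no filter 6 members rose and 1 fell from IP acute to MD cultured, beside 3239 and 6359 of 19673 genes. With single libraries left out 5 to 6 members rose there. The libraries did not overlap for 6, 8 and 6 of the 10 genes in these comparisons, and for 51.9%, 72.2% and 56.4% of all genes. The median member difference was 0.47, 0.87 and 0.12, beside -0.04, -0.24 and -0.16 for all genes. Other scalings moved the medians of all genes to between -0.07 and 0.07 for the MD comparisons, and quantile normalization turned that of IP cultured against IP acute from -0.04 to 0.17. Relative to the median of all genes in the unscaled fit, the Trp53 difference of MD cultured was 0.31 against IP acute and -0.43 against IP cultured, and that of Pmaip1 2.81 and 3.81. The comparisons with IP acute share its 3 libraries, and those with IP cultured share theirs.

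Cdkn2a was at 0.615, 0.598 and 0.594 FPKM in IP acute, which is about 11 to 12 estimated reads per library. In IP cultured it was at 44.4, 8.90 and 22.03 FPKM, and in MD cultured at 2.89, 4.15 and 3.16. The 3 preparations did not overlap. All 3 fresh libraries were under 1 FPKM, so its differences from IP acute are given from the fit with no filter. There Cdkn2a was higher by 4.26 in IP cultured (SE 0.49, adjusted p = 0.000492) and by 1.81 in MD cultured (SE 0.49, adjusted p = 0.0157). With the filter it was lower by -2.45 in MD cultured than in IP cultured (SE 0.47, adjusted p = 0.00364). The authors' deposited table gives 5.46 and 2.75 for the rises (adjusted p = 6.28e-17 and 1.17e-10). Its locus lies on chromosome 4 (89274471 to 89294653, minus strand, 3 exons, mm10).

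Cdkn2b, 11645 bases from Cdkn2a on the same strand (89306299 to 89311039, 2 exons), was at 10.4, 6.51 and 7.48 FPKM in IP acute. It was at 66.8, 21.4 and 36.1 FPKM in IP cultured and at 14.2, 23.5 and 17.98 in MD cultured. Both cultures lay above all fresh libraries, and the cultures overlapped each other. Cdkn2b rose by 2.16 from IP acute to IP cultured (SE 0.38, adjusted p = 0.00235) and by 1.139 to MD cultured (SE 0.38, adjusted p = 0.0296), the latter lost without IP acute 4 or 7 or MD cultured 2 or 3 (adjusted p = 0.0677 to 0.0983). The 3 IP cultured libraries ranked alike for Cdkn2a and Cdkn2b, with IP cultured 2 highest and IP cultured 4 lowest.

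Cdkn2c was at 30.4, 45.1 and 49.1 FPKM in IP acute, 109.1, 77.8 and 108.0 in IP cultured and 71.2, 71.6 and 49.6 in MD cultured. It rose by 1.25 from IP acute to IP cultured (SE 0.23, adjusted p = 0.00272) and by 0.63 to MD cultured (SE 0.23, adjusted p = 0.0394). The latter call was lost in 4 of the 6 fits that left out a library (IP acute 2 or 4, MD cultured 1 or 2, adjusted p = 0.0554 to 0.125) and with no filter (adjusted p = 0.0507). MD and IP cultures differed in Cdkn2c by -0.61 (SE 0.23, adjusted p = 0.054) and in Cdkn2b by -1.02 (SE 0.38, adjusted p = 0.0571), both short of the threshold and both past it without IP cultured 4 (adjusted p = 0.0216 for Cdkn2c and 0.00631 for Cdkn2b).

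Cdkn1a, on chromosome 17 (29090976 to 29100727, plus strand, 3 exons), was at 91.1, 74.5 and 90.2 FPKM in IP acute. It was at 246.5, 132.1 and 170.7 FPKM in IP cultured and at 242.2, 349.4 and 267.0 in MD cultured. Every cultured library lay above every fresh one. Cdkn1a rose by 1.06 (SE 0.23, adjusted p = 0.00638) and 1.73 (SE 0.23, adjusted p = 0.000311) from IP acute to the IP and MD cultures. The step of 0.67 between the cultures (SE 0.23, adjusted p = 0.0411) was lost without IP cultured 4 or 7 or MD cultured 2 or 3 (adjusted p = 0.0775 to 0.14), with no filter (adjusted p = 0.0578) and with only those groups in the fit (adjusted p = 0.0757). An annotated gene of the opposite strand overlaps Cdkn1a, and the notes do not state whether the counting used strand.

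Cdkn1c went the other way. It was at 30.7, 24.7 and 20.2 FPKM in IP acute, 2.76, 6.69 and 7.05 in IP cultured and 4.27, 11.6 and 7.92 in MD cultured. It fell by 2.17 (SE 0.41, adjusted p = 0.00313) and by 1.69 (SE 0.41, adjusted p = 0.00687) against IP acute, with every fresh library above every cultured one. Cdkn1c also overlaps a gene of the opposite strand. Cdkn1b did not differ beyond the spread between libraries, with means of 81.2 ± 19.9, 98.0 ± 19.7 and 81.1 ± 3.24 FPKM (SD, n = 3) in IP acute, IP cultured and MD cultured (adjusted p = 0.289 to 0.912).

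Trp53 was at 52.8, 50.8 and 55.8 FPKM in IP acute, 93.0, 69.5 and 90.8 in IP cultured and 50.2, 63.7 and 53.7 in MD cultured. The IP cultures lay above both other groups. Trp53 rose by 0.65 from IP acute to IP cultured (SE 0.14, adjusted p = 0.00557) and was lower by -0.59 in MD than in IP cultures (SE 0.14, adjusted p = 0.00894), while MD cultured and IP acute differed by 0.07 (SE 0.14, adjusted p = 0.706). In the authors' deposited table the last value is 0.33 with an adjusted p of 0.0281, and that between the cultures is -0.41 with 0.0687.

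Mdm2 showed another order. It was at 30.3 to 33.3 FPKM in the 3 IP acute libraries, 32.1, 32.9 and 27.4 in IP cultured, and 59.5, 86.0 and 61.0 in MD cultured. MD cultures were above all the rest, by 1.13 against IP cultured (SE 0.15, adjusted p = 0.000715) and by 1.09 against IP acute (SE 0.15, adjusted p = 0.000367). IP cultured and IP acute differed by -0.04 (SE 0.15, adjusted p = 0.872).

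The BH3-only genes followed that order. Pmaip1 was at 16.3, 4.27 and 6.44 FPKM in IP acute, 5.05, 2.78 and 2.67 in IP cultured and 39.8, 55.0 and 51.0 in MD cultured. MD cultures had 13.9 times the mean of IP cultures, a rise of 3.65 (SE 0.43, adjusted p = 0.000436), and a rise of 2.57 over IP acute (SE 0.43, adjusted p = 0.00104). IP acute 2 stood above the other fresh libraries, and the lower Pmaip1 of IP cultured against IP acute (-1.09, SE 0.43, adjusted p = 0.0707) was called without IP acute 4 (log2 -1.48, adjusted p = 0.0238). Bbc3 was at 13.2, 17.5 and 13.1 FPKM in IP acute, 13.9, 17.4 and 15.0 in IP cultured and 21.5, 26.8 and 20.6 in MD cultured, with the MD cultures above all others. It rose by 0.56 against IP cultured (SE 0.16, adjusted p = 0.0218) and by 0.64 against IP acute (SE 0.16, adjusted p = 0.00838), and the former call was lost without IP cultured 2 or 7 or MD cultured 2 (adjusted p = 0.0654 to 0.0847).

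**Figure D3:**
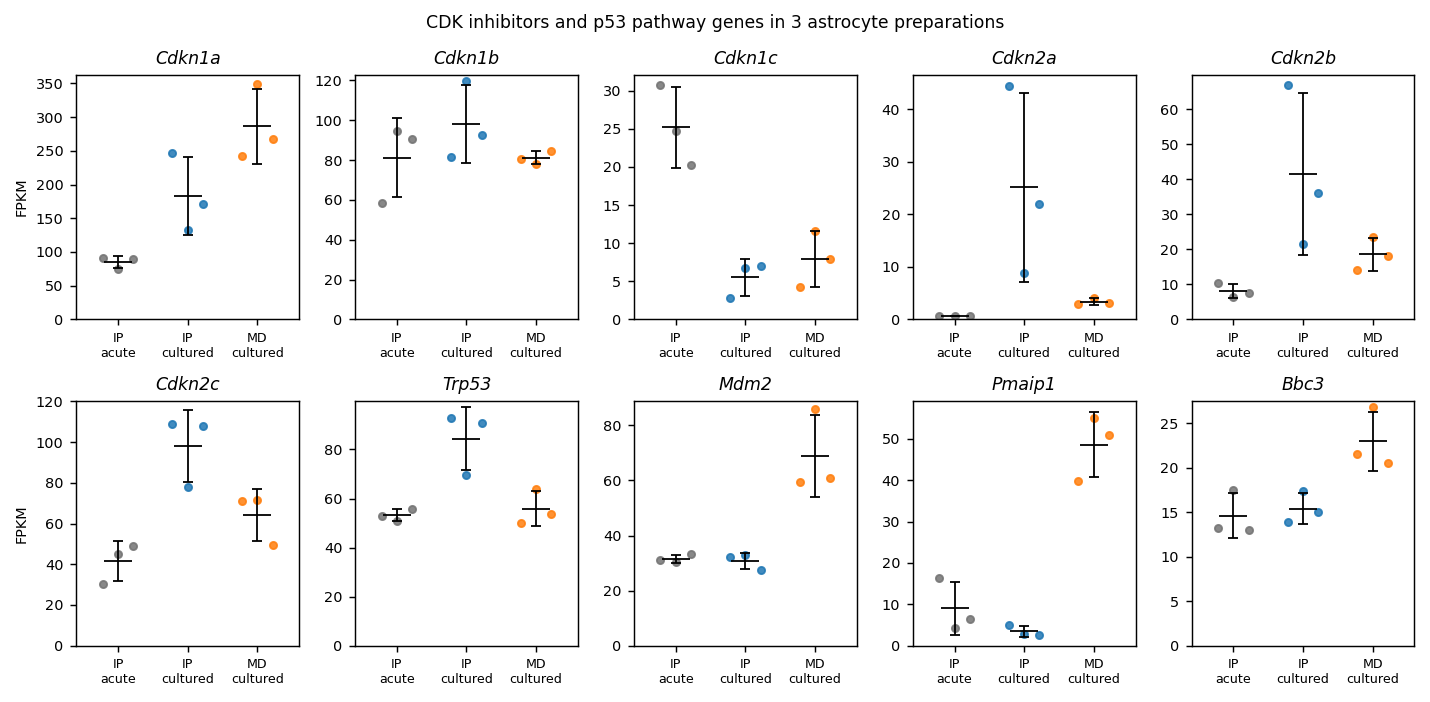
FPKM (linear axes from 0) of the 10 genes in the 9 libraries of the preparation table, a point per library, with the group mean and SD. Cdkn2a is at 0.594 to 0.615 FPKM in fresh cells and highest in IP cultured, while Pmaip1, Mdm2 and Bbc3 are highest in MD cultured.

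Other p53 targets moved in both directions, more of them up than down. Of 34 tested 13 rose and 7 fell from IP acute to IP cultured (17.8% and 25.5% of all genes), at a median of 0.54. Against IP acute 18 rose and 6 fell in MD cultured (20.4% and 39.8% of all genes, median of the list 0.65). Against IP cultured 15 rose and 5 fell in MD cultured (16.4% and 29.3% of all genes, median of the list 0.51). Ephx1 rose by 3.80 (SE 0.26, adjusted p = 2.02e-05) from IP acute to IP cultured, Phlda3, an inhibitor of AKT, by 3.06 (SE 0.21), the cyclin G gene Ccng1 by 2.32 (SE 0.16) and Eda2r by 3.65 (SE 0.29). In MD cultured against IP acute Ccng1 rose by 3.80 (SE 0.16, adjusted p = 1.41e-06), Phlda3 by 3.82 (SE 0.21), the reductase gene Dcxr by 3.37 (SE 0.20) and Ephx1 by 4.33 (SE 0.26). Between the cultures Dcxr (2.00, SE 0.20, adjusted p = 0.000207), Ccng1 (1.48, SE 0.16), the DNA polymerase gene Polk (1.18, SE 0.18) and Perp (2.08, SE 0.38) were higher in MD. Between the cultures the number higher was 8 without MD cultured 2, and the number lower was 2 without IP cultured 2 or MD cultured 1 and 3 without IP cultured 7. The summed level of the list was 1090 to 1169 FPKM in IP acute, 1740 to 2171 in IP cultured and 2697 to 2970 in MD cultured, with no overlap.

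Of 19 p53 regulators 4 rose and 7 fell from IP acute to IP cultured, with Ppp1r13b, which encodes ASPP1 (-2.21, SE 0.20, adjusted p = 8.33e-05), Trp73 (-3.16, SE 0.56) and Mdm4 (-0.96, SE 0.21) lower and Trp63 higher (1.69, SE 0.36). In MD cultured against IP acute 3 rose and 10 fell, among them the deacetylase gene Sirt1 (-1.63, SE 0.13, adjusted p = 2.37e-05), Ppp1r13b (-2.02, SE 0.20) and Hipk2 (-1.19, SE 0.18), with Pml higher (1.11, SE 0.17). Between the cultures 2 rose in MD, with Crebbp at 1.21 (SE 0.23), and 4 fell, with Sirt1 at -1.07 (SE 0.13, adjusted p = 0.000488), Kat5 at -0.45 (SE 0.09) and Atm at -0.68 (SE 0.18). From IP acute to IP cultured 2 rose without IP acute 2, IP cultured 2 or IP cultured 7. Between the cultures 1 rose without IP cultured 2, IP cultured 7 or MD cultured 2, and 2 fell without IP cultured 7. Of all genes tested 17.8% rose and 25.5% fell from IP acute to IP cultured. In MD cultured 20.4% of all genes rose and 39.8% fell against IP acute, and 16.4% and 29.3% against IP cultured. The median of the list changed sign with quantile normalization between IP acute and IP cultured (-0.27 to 0.12) and with either scaling between the cultures (-0.06 to 0.14 and 0.11).

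BCL2 family genes moved in both directions. From IP acute to IP cultured 2 of 12 rose and 5 fell, with Bok (-2.52, SE 0.26, adjusted p = 0.000155), Mcl1 (-0.95, SE 0.17) and Bcl2l2 (-0.76, SE 0.15) lower and the BH3-only gene Bmf higher (2.58, SE 0.28). Only 1 rose without IP acute 2 or 7 or IP cultured 2 or 7. Of all genes tested 17.8% rose and 25.5% fell from IP acute to IP cultured. In MD cultured 16.4% of all genes rose and 29.3% fell against IP cultured, and 20.4% and 39.8% against IP acute. In MD against IP cultures 4 rose and 3 fell, with the survival genes Bcl2l1 (1.60, SE 0.17, adjusted p = 0.000299) and Mcl1 (0.93, SE 0.17) higher and Bmf (-3.01, SE 0.28) and Bcl2l11 (-1.09, SE 0.21) lower. Against IP acute 2 rose in MD, Bcl2l1 (1.39, SE 0.17) and Bad (0.61, SE 0.08), and 4 fell, with Bok at -3.22 (SE 0.26) and Bcl2l11 at -0.99 (SE 0.21).

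Of 24 CDK partners 1 rose and 1 fell from IP acute to IP cultured, Cdk4 (0.76, SE 0.27, adjusted p = 0.0498, at the threshold) and the pocket protein gene Rb1 (-0.66, SE 0.16, adjusted p = 0.0107). Without IP cultured 4 it was 8 higher and 2 lower (median 0.345, in place of 0.012). Without IP cultured 2 it was 0 and 3, and without any one IP acute library 0 rose. Of all genes tested 17.8% rose and 25.5% fell from IP acute to IP cultured. In MD cultured 16.4% of all genes rose and 29.3% fell against IP cultured, and 20.4% and 39.8% against IP acute. MD cultures had less Bmi1 (-1.34, SE 0.12, adjusted p = 0.000166), Myc (-1.97, SE 0.21) and Cdk4 (-1.96, SE 0.27) than IP cultures and more cyclin D3 (Ccnd3, 0.88, SE 0.14), with 3 higher and 5 lower in all, and 4 higher and 15 lower without IP cultured 4. Against IP acute 1 rose in MD, Ccnd3 (0.78, SE 0.14), and 5 fell, with Bmi1 at -1.02 (SE 0.12, adjusted p = 0.000176), Myc at -1.54 (SE 0.21) and Cdc25a at -1.28 (SE 0.21). Of 30 proliferation genes 2 were higher in MD cultured than in each other group, Mki67 (2.89 against IP cultured, SE 0.82, adjusted p = 0.0199, and 3.48 against IP acute, SE 0.82) and Cenpe (2.34, SE 0.58, and 2.36, SE 0.58). By limma 0 were called between IP cultured and IP acute, also 0 at an unadjusted p under 0.05, but IP cultured 4 stood apart with a sum of 237.5 FPKM against 1592 and 1682. Without IP cultured 4 the median of that comparison turned from -0.06 to 0.97 with 15 genes higher, and the median of MD against IP cultured turned from 0.50 to -0.75 with 12 genes lower.

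Markers of other cells moved with the preparations. All 8 endothelial markers were lower in each culture than in IP acute (sums of 781.4 to 1399 FPKM in IP acute, 2.31 to 8.20 in IP cultured and 7.27 to 15.7 in MD cultured), and 9 of 10 neuronal markers were lower in each (529.5 to 1816, 169.3 to 182.9 and 174.1 to 280.4). Microglial markers summed to 146.5 to 1552, 86.2 to 265.1 and 31.3 to 96.8 FPKM, with 3 and 10 of 10 called lower in the IP and MD cultures, and Cldn5 was at 0 in some cultured libraries of both kinds. Oligodendrocyte lineage markers summed to 1115 to 1435 FPKM in IP acute, 1773 to 3896 in IP cultured (5 of 10 higher and 3 lower than in IP acute) and 282.4 to 528.2 in MD cultured (9 of 10 lower than in IP cultured and 4 lower than in IP acute). Ciliated cell markers summed to 20.97 to 46.7, 67.2 to 279.5 and 334.4 to 694.9 FPKM, and in MD cultured 7 of 8 tested were higher than in IP cultured and 8 of 8 than in IP acute. Astrocyte markers summed to 5242 to 7459, 3672 to 6857 and 9154 to 12000 FPKM. Of the 10, 4 were lower in each culture than in IP acute, and 1 and 2 were higher in the IP and MD cultures. A large part of the MD sums was 1 gene, Gfap, at 3170 to 5961 FPKM against 232.1 to 422.4 in IP acute. The median log2 difference of the astrocyte markers in MD cultured against IP acute was -1.07, beside -0.24 for all genes. The part of these cells in the higher Cdkn1c of fresh cells, in the Cdkn2a and Trp53 of IP cultures and in the Pmaip1 of MD cultures was not tested.

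**Figure D4:**
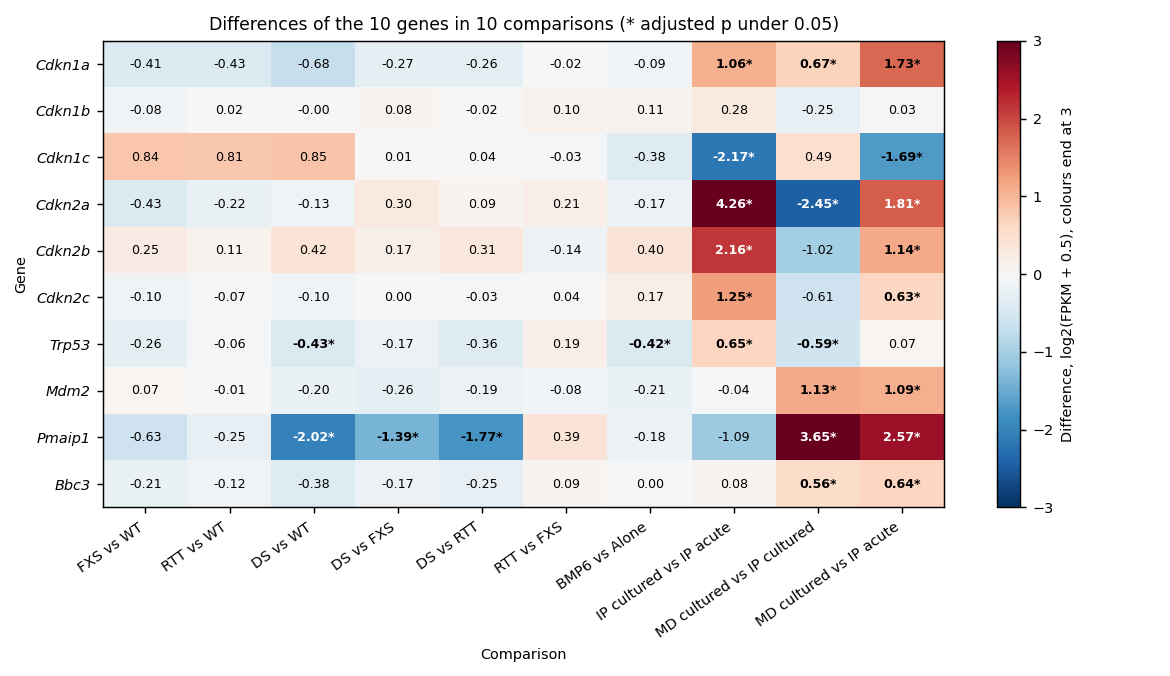
Differences of the 10 genes (rows) in the 10 comparisons (columns) on the log2(FPKM + 0.5) scale, red where the first group named is higher and blue where it is lower, with an asterisk at an adjusted p under 0.05. Calls are sparse in the disorder and BMP6 columns and frequent in the preparation columns, where Cdkn2a spans -2.45 to 4.26.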

How the data were processed

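RNA of mouse astrocytes was sequenced as stranded poly(A) libraries of 50-base single-end reads, per the labels' protocols. The 43 libraries form 3 tables of FPKM values deposited by the authors, and the header of the preparation table names no unit, so its values were read as FPKM. The authors' deposited preparation table also holds log2 fold changes and adjusted p-values of its own. Per the submitters' processing notes the tools were STAR 2.5.3a, DESeq2 1.14.1, HOMER 4.10.4 and FastQC 0.11.8 with build mm10, with no roles stated. Groups came from the labels.

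FPKM are not counts, so each table was fitted alone with limma 3.58.1 (R 4.3.3, group means, moderated variance with a trend) on log2(FPKM + 0.5), which understates changes of low genes. Genes needed at least 1 FPKM in 4, 6 and 3 libraries of the disorder, BMP6 and preparation tables, the sizes of their smallest groups. Tests were two-sided, with Benjamini-Hochberg adjustment over all genes tested and a threshold of 0.05. The script was tested on simulated data with 200 changed genes.

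Depth was estimated from low FPKM values, of which 70.9 to 78.3% were within 0.08 of a whole number of reads at the chosen depth and 5.76 to 11.9% at other depths. It differed between groups, with medians of 18.15 Mreads (megareads) in WT and 44.55 Mreads in FXS. Estimated reads carry counting error and also the error of the estimated depth and of the transcript length used.

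The BMP6 and Alone libraries of a culture share a batch label, which pairs them, and their deviations from the group means correlated at 0.41 to 0.777 over genes. The alternatives were other pseudocounts, filters, scalings and variance estimates, fits of only the groups compared, the culture as a block, and each library left out. Named genes are the 10 members, up to 4 genes of smallest p among those called in each list and comparison, and the 3 genes most like each member. The members and lists were chosen with earlier results of these data known.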

Additional observations from a re-analysis of the deposited data

Results flagged for a closer look

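Of the 60 groups of 4 to 6 libraries in which the 10 genes were examined for a library far from the rest, 5 held one, and chance gives about 1 in 20. Cdkn1b was at 62.6 FPKM in DS 19 and at 51.9 to 52.5 in the other DS libraries. Cdkn2b was at 36.2 FPKM in WT 30 and at 19.9 to 25.7 in the other WT libraries. Cdkn2c was at 31.1 FPKM in RTT 18, below 37.6 to 41.1 in the other RTT libraries, and at 54.2 FPKM in DS 32, above 32.1 to 33.5 in the other DS libraries. Cdkn1c was at 2.94 FPKM in BMP6 of culture 7 and at 0.426 to 1.27 in the other BMP6 libraries.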

How the results depend on the processing

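Over all alternatives 1849 member differences were recomputed. Of these 1810 kept their side of the threshold, 26 lost a call, 13 gained one and 0 reversed a call, while 87 changed sign short of the threshold. In DS against WT the number of members called was 2, ran from 1 to 3 with single libraries left out, and was 1 without WT 33, FXS 31 and DS 32. In DS against RTT it was 1, and 1 to 2 with single libraries left out (2 without RTT 40, where Trp53 differed by -0.42, adjusted p = 0.0427). With BMP6 it was 1, and 3 with the replicate block. Without cultures 4 and 6, an alternative chosen after seeing the data, it was 0, and 3 with the block. Between preparations it ran from 6 to 7 (IP cultured against IP acute), 4 to 7 (MD against IP cultured) and 6 to 7, in place of 8 (MD cultured against IP acute), with single libraries left out. IP acute and IP cultured share the replicate numbers 2, 4 and 7. Deviations from the group means of libraries with the same number correlated at r -0.0564 to 0.0909. With 3 libraries per group this cannot decide whether the numbers pair them. With those numbers as a block and only these groups fitted 7 members were called, with Pmaip1 at -1.09 (adjusted p = 0.0422), and 3907 genes, against 5029 with only these groups and no block and 6106 in the fit of all groups. The count of all genes called moved from 1839 to 4321 with the block in the BMP6 table, to 494 without cultures 4 and 6 and to 3854 with both. It moved from 1 to 209 in FXS against WT with only these groups fitted, and in DS against WT from 556 to 353 with the filter at 5 FPKM, 305 with only these groups and 994 without WT 33, FXS 31 and DS 32. In DS against FXS it moved from 347 to 222 and 200, and in DS against RTT from 350 to 217 and 127, with that filter and with only the groups compared. In DS against FXS 151 genes were lower, and 95, 93 and 306 without DS 19, 21 and 39. In DS against RTT 154 were lower, and 102 and 273 without DS 19 and 39 and 100 and 90 without RTT 43 and 44. With BMP6 1184 were lower, and 773, 630, 717 and 669 without the BMP6 library of cultures 2, 3, 5 and 6 and 669 without Alone of culture 5. FXS against WT gave 14 without WT 22, in place of 1. RTT against FXS gave 593 without RTT 40, in place of 3. Median of ratios scaling and quantile normalization moved the share of called genes that were higher from 48.4% to 62.2% and 62.8% (DS against WT), 56.5% to 67.1% and 69.3% (DS against FXS), 56.0% to 66.9% and 65.3% (DS against RTT), 35.6% to 57.0% and 54.1% (BMP6) and 33.9% to 47.6% and 53.2% (MD cultured against IP acute). Quantile normalization moved it from 41.2% to 61.9% in IP cultured against IP acute, and median of ratios scaling from 35.9% to 52.0% in MD against IP cultured. The cause was not tested. Low levels limit Cdkn2a in fresh cells, at about 11 to 12 estimated reads.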
